A study of Mus musculus with 6 samples.

Results

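The type I interferon genes described here are 10 genes that cells switch on when interferon reaches them, namely Mx1, Mx2, Isg15, Ifit1, Ifit2, Ifit3, Oas1a, Oasl1, Oasl2 and Rsad2. They were chosen by symbol, as every probe set whose annotation names one of them, which gave 12 of the 45101 probe sets. Of the genes, 9 have a probe set of their own and stand among the 18193 genes tested, while Isg15 has 1 probe set that it shares with the pseudogene Gm9706. Expression was measured with 1 Affymetrix array per mouse in LSK cells, the marrow fraction that lacks lineage markers and carries cKit and Sca1, which holds the hematopoietic stem cells and early progenitors. The 3 WT mice have the genotype Mx1-cre+, and the 3 N1IC mice carry lox-stop-lox N1-IC as well as Mx1-cre+, so that Cre turns on N1-IC, the active intracellular part of Notch1. All 6 mice were 5 weeks old. From an age of 21 days they had been given polyIC 3 times, every other day, in a dose of 20 mcg for each g they weighed, and the cells were sorted 2 weeks after the last injection. By the genotype labels both groups thus carry the Cre transgene, and by the labels both received polyIC. No group without polyIC was analysed here, so that no level given can be called induced or at rest. The treatment text of the labels names Ncstn flox/flox mice with and without Mx1-cre+ instead of N1-IC mice. It thus conflicts with Cre in both groups, and whether it was written for these mice is not known. The groups follow the genotype and title labels. The WT mice were 2 males and 1 female, WT replicate 2, and the N1IC mice were 3 females.

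PolyIC is a synthetic double-stranded RNA. Cells detect it through the endosomal receptor Tlr3 and through cytosolic sensors, and answer with type I interferon, which acts through the receptor chains Ifnar1 and Ifnar2, the kinases Jak1 and Tyk2 and a complex of STAT proteins with Irf9. That complex binds a promoter element called ISRE and turns on genes that block viral replication. The Mx1 promoter is one such target and drives the Cre of both groups, so that polyIC starts recombination in Mx1-cre mice. In bone marrow, interferon also wakes resting stem cells.

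Of the 10 interferon genes, the Isg15 probe set and Oasl1 were higher in N1IC than in WT, and none was lower, at an adjusted p below 0.05. Over all probe sets 3.16% were higher and 4.76% lower, and over all genes 3.47% were higher and 8.31% lower. The Isg15 probe set was 3.45-fold and Oasl1 1.45-fold higher. Mx1 had the widest difference in the other direction, 3.79-fold lower on average, and did not pass the test. The group as a whole showed no common direction, with 6 N1IC means below the WT mean and 4 above it. In sorted bulk cells, fewer cells of a type and less RNA per cell cannot be told apart. The difference between groups was tested with limma, with Benjamini-Hochberg adjustment over all genes, or over all 45037 probe sets for Isg15 and for the further probe sets of Rsad2.

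Promoter sequences are shown for what some of these genes share outside their RNA levels. Of the 10 genes, 8 matched the RefSeq promoters of build GRCm38.p6, each covering 250 bases before to 50 bases after an annotated start site. The core of the ISRE was searched on both strands as GAAA, any 2 bases and GAAA again, which reads TTTC, any 2 bases and TTTC on the other strand, with overlapping matches counted. It was found for 5 of the 8 genes, in 5 of their 9 promoters, against 3.44% of all 32851 promoters in the same table. The gamma-activated site, TTC, any 3 bases and GAA, which reads the same on both strands, was found for Ifit2 and Oas1a, against 8.3% of all promoters. The 5 promoters with an ISRE core and that of Oasl1, which rose without a match, are shown 5′ to 3′ on the strand of the gene, with ISRE cores in capitals.
Isg15, chr4:156200769-156201068, minus strand: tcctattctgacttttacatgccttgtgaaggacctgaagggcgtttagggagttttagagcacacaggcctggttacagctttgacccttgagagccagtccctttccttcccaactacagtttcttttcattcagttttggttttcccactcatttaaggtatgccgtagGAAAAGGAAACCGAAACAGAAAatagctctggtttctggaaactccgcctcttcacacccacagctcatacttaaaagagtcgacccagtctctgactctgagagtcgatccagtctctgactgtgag
Ifit1, chr19:34640639-34640938, plus strand: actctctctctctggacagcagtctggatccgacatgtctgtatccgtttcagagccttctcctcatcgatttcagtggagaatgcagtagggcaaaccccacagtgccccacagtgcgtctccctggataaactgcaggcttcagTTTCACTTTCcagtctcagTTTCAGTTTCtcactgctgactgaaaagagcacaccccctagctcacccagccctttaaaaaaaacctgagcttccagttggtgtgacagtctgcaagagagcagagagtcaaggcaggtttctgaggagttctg
Ifit3, chr19:34583279-34583578, plus strand: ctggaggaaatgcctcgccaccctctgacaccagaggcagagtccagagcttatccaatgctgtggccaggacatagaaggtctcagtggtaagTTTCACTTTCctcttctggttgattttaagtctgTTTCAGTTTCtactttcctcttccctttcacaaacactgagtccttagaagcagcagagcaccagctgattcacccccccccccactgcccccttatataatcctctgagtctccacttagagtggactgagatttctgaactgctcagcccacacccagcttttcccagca
Oas1a, chr5:120907476-120907775, minus strand: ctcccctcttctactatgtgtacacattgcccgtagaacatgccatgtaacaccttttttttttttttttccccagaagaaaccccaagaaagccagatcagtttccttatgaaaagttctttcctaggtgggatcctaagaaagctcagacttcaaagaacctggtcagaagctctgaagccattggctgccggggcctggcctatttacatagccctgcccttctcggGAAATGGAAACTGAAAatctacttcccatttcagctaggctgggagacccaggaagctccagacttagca
Rsad2, chr12:26456403-26456702, minus strand: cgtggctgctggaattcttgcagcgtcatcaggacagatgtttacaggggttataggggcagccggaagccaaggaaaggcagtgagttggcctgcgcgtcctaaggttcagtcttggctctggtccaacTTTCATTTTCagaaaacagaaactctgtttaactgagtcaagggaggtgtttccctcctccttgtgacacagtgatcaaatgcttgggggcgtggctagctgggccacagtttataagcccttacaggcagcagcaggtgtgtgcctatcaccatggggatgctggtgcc
Oasl1, chr5:114922990-114923289, plus strand: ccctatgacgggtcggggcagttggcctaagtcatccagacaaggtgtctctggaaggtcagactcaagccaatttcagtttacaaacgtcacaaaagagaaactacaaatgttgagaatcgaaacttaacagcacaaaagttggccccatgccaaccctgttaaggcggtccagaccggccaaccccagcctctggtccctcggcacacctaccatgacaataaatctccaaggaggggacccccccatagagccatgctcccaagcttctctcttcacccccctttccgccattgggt
The Isg15 promoter holds 3 overlapping cores in 1 run between 78 and 57 bases before the start. Ifit1 and Ifit3 each hold a pair of cores with the same letters, TTTCACTTTC and TTTCAGTTTC, between 104 and 76 bases before the start in Ifit1 and between 156 and 113 bases before it in Ifit3. Oas1a holds 2 overlapping cores between 20 and 5 bases before the start, and Rsad2 has 1 core between 120 and 111 bases before it. A match is a run of letters, not a site shown to be bound, and no match says only that these letters are not in this window. Genes with a core included the Isg15 probe set, which rose, and Ifit1, Ifit3, Oas1a and Rsad2, which did not pass the test.

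**Figure D1:**
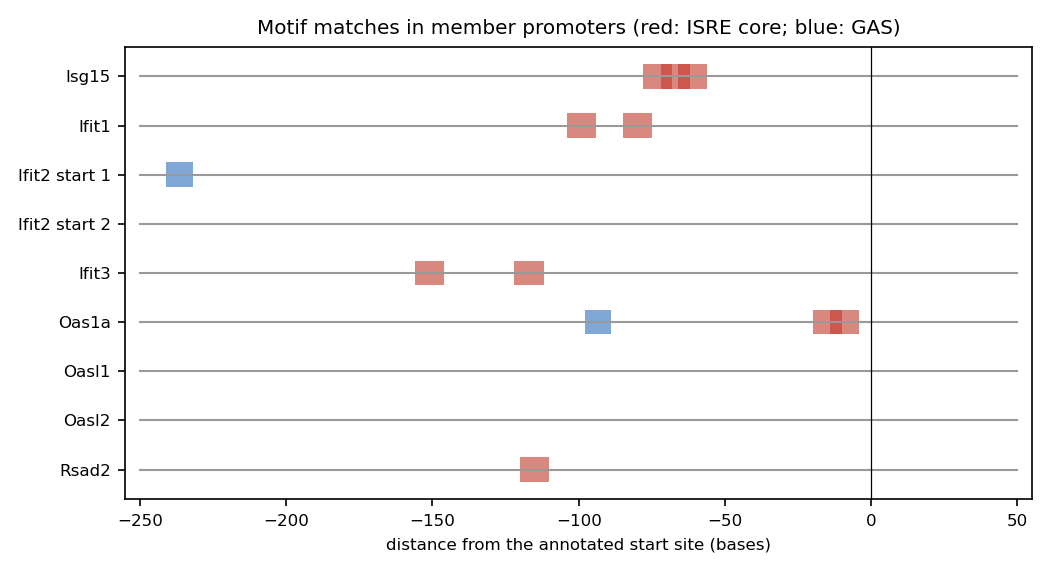
Position of motif matches in the 9 RefSeq promoters of 8 interferon genes, in bases from the annotated start site (vertical line); red boxes are ISRE cores and blue boxes are gamma-activated sites. Cores lie within 156 bases before the start in Isg15, Ifit1, Ifit3, Oas1a and Rsad2, and the windows of Oasl1 and Oasl2 hold neither motif.

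Values are log2 of the deposited intensity, and each is set only against the same probe set on other arrays. Of all 18193 genes tested, 11.8% were called in either direction, which is the background for each count of genes. Of all probe sets, 7.92% were called. The 3 arrays of each group did not overlap for 32.8% of genes, with N1IC lower in 19.7% and higher in 13.1%. Centring each array on the median of its tested genes, a setting added once the values had been seen, moved the median of all genes from -0.01 to 0.31 and the calls from 632 higher and 1512 lower to 5359 higher and 1012 lower. Among the WT arrays, replicate 1 differed most, with a mean of 8.88 over 10 conventional dendritic cell markers against 10.43 and 10.37, and of 10.54 over 10 neutrophil markers against 12.35 and 12.25.

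Markers of some cell types, but not of all, differed between the groups. Of 11 measured LSK markers 9 were lower in N1IC, and the mean log2 level of that list was between 11.21 and 11.58 in WT and between 9.50 and 9.61 in N1IC, while the sort marker Kit did not pass, at a log2 difference of -0.25. Of 10 T cell markers 7 were higher, at list means of 5.99 to 7.27 in WT and 9.75 to 10.43 in N1IC. Of 11 markers of plasmacytoid dendritic cells, the main makers of type I interferon, 1 was lower, Irf8, at list means of 9.22 to 10.23 in WT and 9.01 to 9.14 in N1IC. Of 10 conventional dendritic cell markers 2 were lower, at 8.88 to 10.43 in WT and 8.44 to 8.61 in N1IC. Of 8 B cell markers 5 were lower and of 10 neutrophil markers 3 were lower, and of 12 monocyte and macrophage markers 2 were higher and 2 lower. Of 9 mast cell and basophil markers 3 were higher, of 8 NK cell markers 1 was higher, and none of 7 erythroid markers passed. Of all genes, 11.8% were called, beside 81.8% of LSK, 70% of T cell and 62.5% of B cell markers. The share was 33.3% each for mast cell and basophil and for monocyte and macrophage markers, and 30% for neutrophil markers. It was 20% for conventional dendritic cell, 12.5% for NK cell, 9.09% for plasmacytoid dendritic cell and 0% for erythroid markers. Group ranges of the list mean overlapped for neutrophil, monocyte and macrophage, NK cell and erythroid markers. Without WT replicate 1 the lower counts were 9 for neutrophils, 8 for conventional and 4 for plasmacytoid dendritic cells, 4 for NK cells, 7 for LSK cells and 1 each for T cells and erythroid cells, and 1 monocyte and macrophage marker was higher. With sex as a covariate they were 0 for neutrophils and plasmacytoid dendritic cells, 1 for conventional dendritic cells, 5 for LSK cells, 4 for B cells and 1 each for mast cells and for monocytes and macrophages, with 4 T cell and 3 mast cell markers higher. Flt3 is on both the LSK and the conventional dendritic cell lists, so their counts share a gene. It is the conventional dendritic cell marker that was lower with sex as a covariate. No detection calls were used, so no marker can be called absent. The part of cell makeup in the interferon gene values was not tested.

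Isg15 encodes a ubiquitin-like protein that is joined to other proteins during the interferon response. Its probe set read 8.90, 8.50 and 8.52 in WT replicates 1, 2 and 3, and 10.42, 10.51 and 10.36 in N1IC replicates 1, 2 and 3. Every N1IC array lay above every WT array, and the N1IC arrays differed among themselves by at most 0.16. The log2 difference was 1.79 ± 0.13 (SE, n = 3 per group), with an adjusted p of 0.0024 by limma over all probe sets. It passed in all 19 alternatives run for it, with log2 differences between 1.72 and 2.11 and adjusted p between 0.00134 and 0.0311 by limma. Since the annotation gives this probe set to Gm9706 as well, the share of either gene in the signal cannot be told apart.

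Rsad2 encodes viperin, a radical SAM enzyme that makes a nucleotide analog which stops viral RNA synthesis. On the brightest of its 3 probe sets it read 10.08, 10.22 and 9.32 in WT and 10.01, 9.96 and 10.32 in N1IC. The groups overlapped, and WT replicate 3 was the lowest array. The log2 difference was 0.23 with a 95% confidence interval from -0.39 to 0.85, and it was -0.05 without WT replicate 3. The next probe set had a log2 difference of -0.03, and the third one 0.51, with adjusted p of 0.933 and 0.24 by limma over all probe sets. WT replicate 3 was also the lowest array on both of these.

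Mx1 and Mx2 encode dynamin-like GTPases that trap viral particles, and RefSeq lists both as transcribed pseudogenes in the C57BL/6J assembly. The labels used here do not name the strain of these mice. Mx1 read 7.81, 8.12 and 9.54 in WT and 6.92, 6.08 and 6.70 in N1IC. The groups did not overlap, and WT replicate 3 was well above the other WT arrays. The log2 difference was -1.92 ± 0.48 (SE, n = 3 per group), with a 95% confidence interval from -3.10 to -0.75 and an adjusted p of 0.0565 by limma. Over the alternatives its adjusted p lay between 0.0323 and 0.364 by limma, and it passed in 7 of 20 of them, all with N1IC lower. These 7 include the reported fit at a threshold of 0.1. They also include the centring on the median of tested genes, added once the values had been seen, which gave the lowest adjusted p. Without WT replicate 3 the log2 difference was -1.40, with an adjusted p of 0.0551 by limma, and without WT replicate 1 it was -2.26, with an adjusted p of 0.0465. Set against the female WT mouse alone through sex as a covariate, it was -1.55, with an adjusted p of 0.364 by limma. The annotation gives this probe set to Mx1. All 6 mice carry the Mx1-cre transgene by their genotype labels, and whether the probe set also reads part of it was not tested. Mx2 read 5.02, 5.31 and 5.31 in WT and 5.48, 4.44 and 4.89 in N1IC, and the groups overlapped. Its log2 difference was -0.28, with a 95% confidence interval from -0.93 to 0.37, and it was 0.04 with each array centred on the median of its tested genes, a scaling that adds 0.32 to every difference.

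Ifit1, Ifit2 and Ifit3 encode tetratricopeptide proteins that bind foreign RNA or partner proteins, and they lie in a cluster on chromosome 19. Ifit1 read 8.23, 7.29 and 7.35 in WT and 8.07, 7.84 and 7.21 in N1IC. The groups overlapped, and the spread within WT, 0.93, was wider than the log2 difference of 0.08, whose 95% confidence interval ran from -0.72 to 0.89. Ifit2 read 10.71, 10.38 and 10.56 in WT and 10.08, 10.21 and 9.62 in N1IC, so that all N1IC arrays lay below all WT arrays. Its log2 difference was -0.57 ± 0.18 (SE, n = 3 per group), and the adjusted p of 0.0985 by limma missed the threshold. Ifit3 read 7.78, 7.16 and 7.46 in WT and 7.42, 6.92 and 6.96 in N1IC, with overlap. Its log2 difference was -0.37, with a 95% confidence interval from -0.87 to 0.13.

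In the same cluster, Ifit1bl1, a gene related in sequence to Ifit1, was 2.59-fold higher in N1IC. It read 7.44, 7.95 and 7.76 in WT and 9.54, 9.07 and 8.65 in N1IC, with no overlap and an adjusted p of 0.0218 by limma. The span of its RefSeq gene model overlaps that of Ifit1, and whether its probe set also reads Ifit1 was not tested. The call was lost without WT replicate 1, WT replicate 3 or N1IC replicate 2, with adjusted p up to 0.0698 by limma, and with sex as a covariate, where its adjusted p was 0.204. Ifit1bl2, named after its values were seen, had a log2 difference of -0.97 with an adjusted p of 0.247 by limma.

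Oas1a encodes an enzyme that senses double-stranded RNA and makes oligoadenylates, the signal for a ribonuclease that cuts viral RNA. It read 10.87, 10.76 and 10.85 in WT and 10.63, 10.42 and 10.55 in N1IC, lower on every N1IC array. The log2 difference was -0.29 ± 0.09 (SE, n = 3 per group), and the adjusted p of 0.0893 by limma missed the threshold. With each array centred on the median of its tested genes, the difference was 0.03, since that scaling adds 0.32 to the difference of every gene.

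Oasl1 and Oasl2 are relatives of Oas1a with ubiquitin-like domains, and Oasl1 is known to restrain the translation of Irf7. Oasl1 read 7.78, 7.80 and 7.73 in WT and 8.28, 8.25 and 8.39 in N1IC. The groups did not overlap, and the arrays of each group differed by no more than 0.14. The log2 difference was 0.54 ± 0.08 (SE, n = 3 per group), with an adjusted p of 0.00934 by limma. The call held whichever array was left out, and its adjusted p by limma then ran from 0.0248 to 0.0393. It was lost with sex as a covariate, at a log2 difference of 0.51 and an adjusted p of 0.11, and with female mice only, at 0.136, fits that both set N1IC against WT replicate 2. Oasl2 read 9.58, 9.25 and 9.53 in WT and 9.35, 8.76 and 8.55 in N1IC. N1IC replicate 1 lay within the WT range and the others below it. The log2 difference was -0.57, with a 95% confidence interval from -1.11 to -0.03 and an adjusted p of 0.17 by limma. Without N1IC replicate 1 it was -0.80 and the adjusted p 0.0461.

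**Figure D2:**
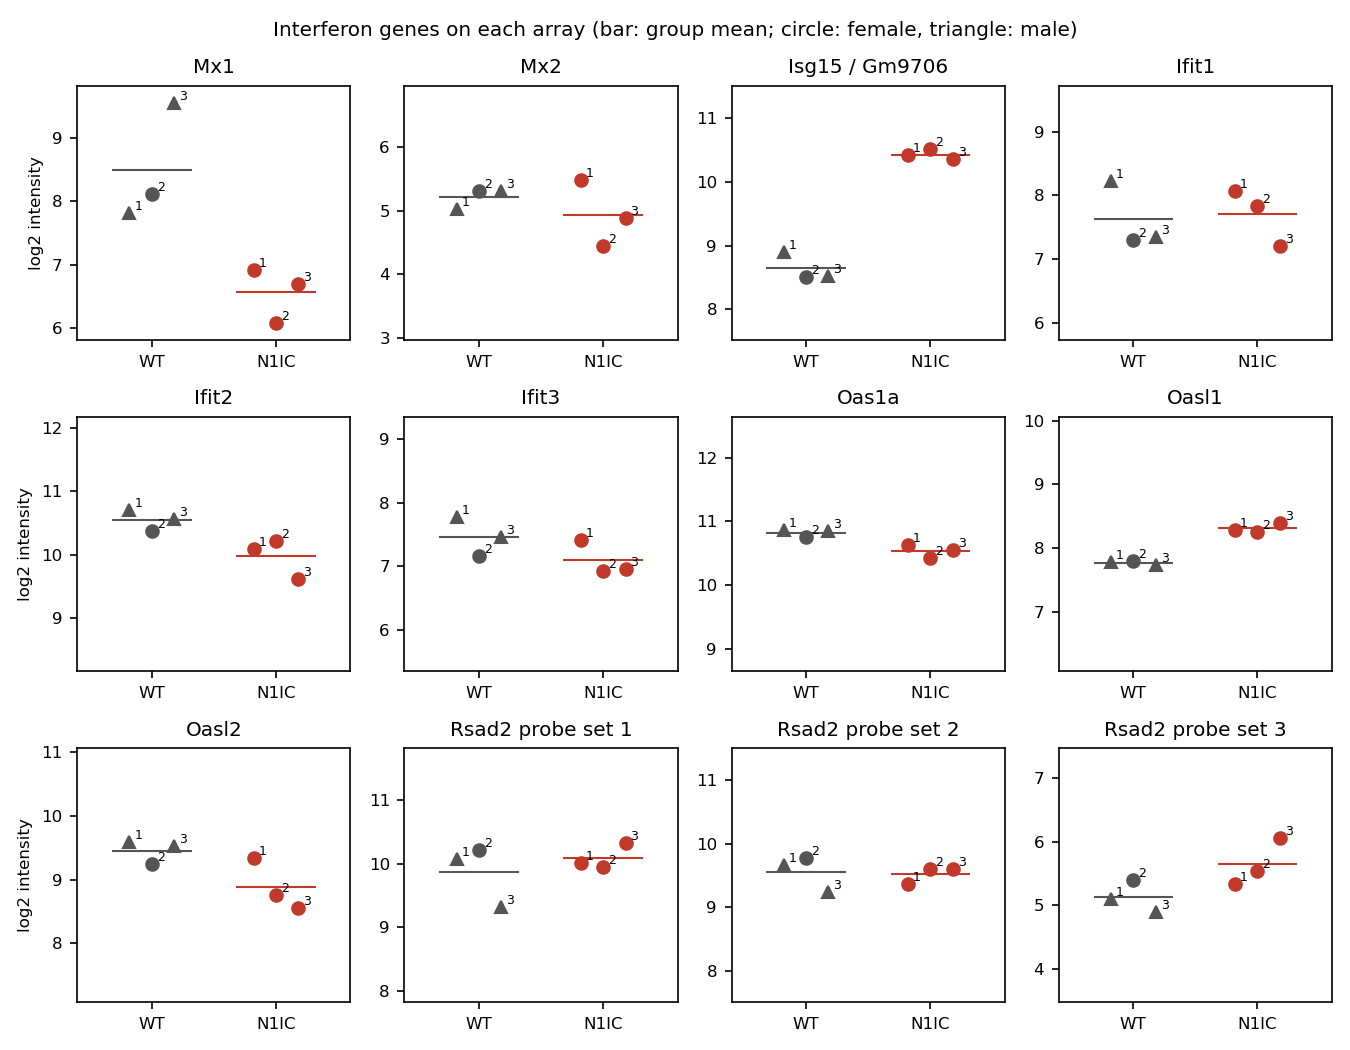
Log2 intensity of the 12 probe sets of the 10 interferon genes on each of the 6 arrays (WT grey, N1IC red, numbered by replicate; circles female, triangles male; bars group means), each panel spanning 4 log2 units. The 3 N1IC arrays lie between 10.36 and 10.51 on the Isg15 probe set, above the WT arrays at 8.50 to 8.90, and WT replicate 3 stands high for Mx1.

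Over the 12 probe sets, 3 of them of Rsad2, 2 were called higher, beside 3.16% of all probe sets. The groups did not overlap for 5 of the 12, beside 29.5% of all probe sets. Over the 9 genes with a probe set of their own, 1 was called higher and none lower, or 11.1%, beside 11.8% of all genes. At an unadjusted p below 0.05, 5 of the 9 differed, beside 26.6% of all genes. Groups did not overlap for 4 of the 9, 3 lower and 1 higher, beside 32.8% of all genes. The median log2 difference of the 9 genes was -0.29, beside -0.01 for all genes. Their mean log2 level was between 8.48 and 8.65 on the WT arrays and between 8.10 and 8.47 on the N1IC arrays. This mean leaves out the Isg15 probe set, at a log2 difference of 1.79. It includes Mx1, at -1.92 the widest difference of the 9, so it does not show a fall of the 10 genes as a set.

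**Figure D3:**
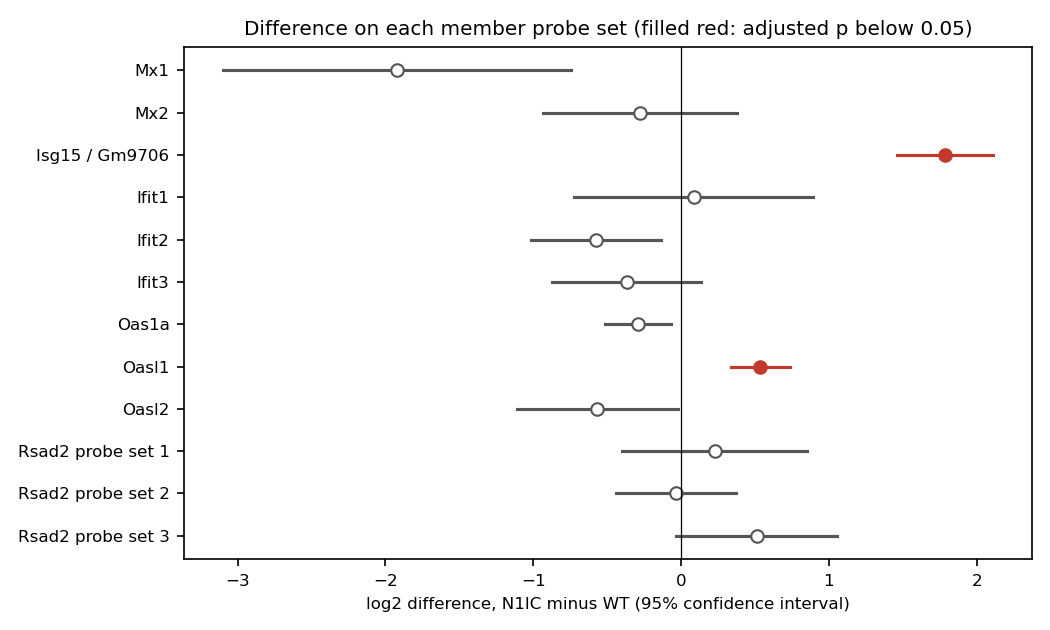
Log2 difference between N1IC and WT on each of the 12 probe sets, with its 95% confidence interval from the fit over all probe sets (filled red symbols, adjusted p below 0.05). The probe set of Isg15 and Gm9706 at 1.79 and Oasl1 at 0.54 passed, and the 3 probe sets of Rsad2, brightest first, lie at 0.23, -0.03 and 0.51.

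**Figure D4:**
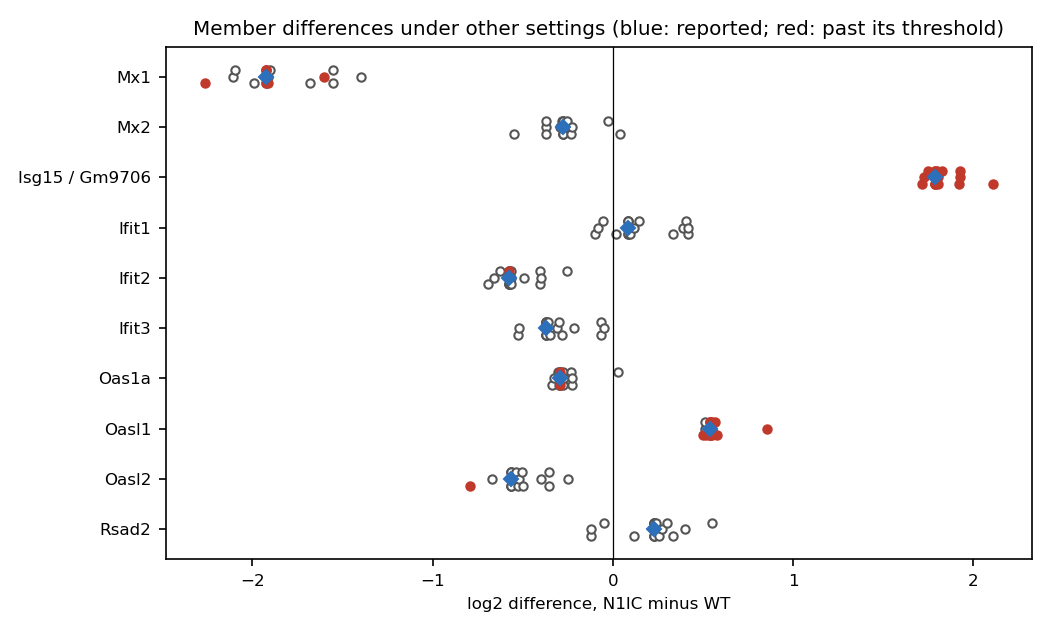
Log2 difference between N1IC and WT of each interferon gene as reported (blue diamonds) and under each alternative setting or array left out (circles; red, past that setting's threshold). The Isg15 probe set lies between 1.72 and 2.11 throughout, Mx1 is below 0 throughout, and Mx2, Ifit1, Oas1a and Rsad2 lie on both sides of 0.

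Within WT, 6 of the 10 genes shared 1 order of the arrays. Isg15, Ifit1, Ifit2, Ifit3, Oas1a and Oasl2 were each highest on WT replicate 1 and lowest on WT replicate 2. WT replicates 2 and 3 were close for Isg15, at 8.50 and 8.52, and for Ifit1, at 7.29 and 7.35. For Oas1a, WT replicates 1 and 3 were close, at 10.87 and 10.85. The share of all genes with this order was not counted, so it is not shown to be particular to the interferon genes. Mx1 and Mx2 were lowest on WT replicate 1 and highest on WT replicate 3, although WT replicates 2 and 3 were nearly equal for Mx2. Within N1IC, replicate 1 was the highest array for 6 genes, namely Mx1, Mx2, Ifit1, Ifit3, Oas1a and Oasl2, and the lowest for none. WT replicate 1 is also the WT array with the lowest list means of dendritic cell and neutrophil markers. The same holds for monocyte and macrophage, T cell, NK cell, mast cell and basophil, and erythroid markers, while its LSK list mean was the highest in WT. WT replicate 2 came from the female WT mouse. The part of marker levels or of sex in these orders was not tested.

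The genes most like the mean of the 9 over the 6 arrays, among 9093 genes at or above the median level, were Golgb1, Depdc1b, Lysmd1, Ss18 and Rabl6, with Pearson's r between 0.985 and 0.992. After the group means were subtracted, they were Ankrd10, Rev3l, Lysmd1, Trmt10a and Stau1, with r between 0.987 and 0.998. No other interferon gene was among them. These values come from 6 arrays that each correlation shares, and picking the highest of 9093 makes them high.

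Beyond the 10, other genes of the pathway were counted from lists. Of 42 other interferon-induced antiviral effectors measured, 3 were higher and 2 lower in N1IC, or 11.9%, beside 11.8% of all genes. Their median log2 difference was 0.08. Ifi35, an interferon-induced leucine zipper protein, rose by 0.39 on the log2 scale, from 12.16 ± 0.10 to 12.55 ± 0.02 (SD, n = 3). Parp9, an ADP-ribosyltransferase family member, rose 1.58-fold, and Ifit1bl1 rose as given above. Ifi27l2a, a small interferon-induced protein, was 2.05-fold lower, at 11.13 ± 0.33 in WT and 10.09 ± 0.23 in N1IC. Ifitm3, a membrane protein that blocks viral entry, fell by 0.38 on the log2 scale. Adjusted p was 0.0328 for Ifi35, 0.0396 for Parp9, 0.0255 for Ifi27l2a and 0.0269 for Ifitm3 by limma. Leaving out 1 array in turn left 0 to 2 of the list higher and 0 or 1 lower, and Ifi35 and Ifitm3 lost their call in each of these 6 fits. Parp9 passed only without WT replicate 3 and Ifi27l2a only without WT replicate 1 or N1IC replicate 1. With sex as a covariate none of the 5 passed, at adjusted p of 0.28, 0.0816, 0.204, 0.142 and 0.239 by limma for Ifi35, Parp9, Ifit1bl1, Ifi27l2a and Ifitm3. Without WT replicate 1, none was higher and 1 lower. The brightest genes not called were Ly6e, Ifitm1 and Ifitm2, with log2 differences of 0.10, -0.32 and 0.17.

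In the receptor and signalling list, 1 of 14 measured genes was higher and 2 were lower, or 21.4%, beside 11.8% of all genes. Ifnar1, a chain of the type I interferon receptor, read 10.98, 10.99 and 10.94 in WT and 10.65, 10.68 and 10.65 in N1IC. It was thus lower on every N1IC array, by 0.31 on the log2 scale, with an adjusted p of 0.0356 by limma. Ifnar2, named after its values were seen, had a log2 difference of -0.20 with an adjusted p of 0.301 by limma. Socs3, an inhibitor of cytokine signalling, was 1.80-fold lower, from 10.13 ± 0.28 in WT to 9.28 ± 0.01 in N1IC (SD, n = 3). Socs1, a feedback inhibitor of the interferon receptors, rose by 0.39 on the log2 scale, from 5.26 in WT to 5.65 in N1IC. With sex as a covariate the calls of Ifnar1, Socs3 and Socs1 were lost, at log2 differences of -0.33, -0.97 and 0.48. With each of the 6 arrays left out in turn, Ifnar1 and Socs1 passed in no fit, with adjusted p between 0.082 and 0.109 and between 0.0619 and 0.139 by limma, and Socs3 passed only without WT replicate 1. The bright genes Ptpn11, Ptpn6 and Jak1 did not pass, at -0.14, 0.17 and 0.22, and Irf9, chosen with its values known, had the same mean of 10.36 in both groups.

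For the sensing of double-stranded RNA, 2 of 17 measured genes were lower and none higher, or 11.8%, the same share as of all genes. The 2 were Tlr3 and Ticam1. Tlr3, the receptor that binds polyIC in endosomes, was 15.0-fold lower in N1IC. It read 8.98, 11.34 and 11.39 in WT and 6.50, 6.58 and 6.90 in N1IC, with WT replicate 1 well below the other WT arrays and all N1IC arrays lower still. The mean of the conventional dendritic cell markers was also lowest in WT on replicate 1 and lower in N1IC, and its part in the Tlr3 values was not tested. Ticam1, the adaptor that carries the Tlr3 signal, was 1.94-fold lower, at 8.08, 8.30 and 8.18 in WT and 6.92, 7.26 and 7.51 in N1IC. Adjusted p was 0.0171 for Tlr3 and 0.0175 for Ticam1 by limma. Without WT replicate 1 Tlr3 was 26.1-fold lower with an adjusted p of 0.000475 by limma, while its call was lost without any other array, with adjusted p up to 0.0651 by limma. The call of Ticam1 was lost without WT replicate 2, WT replicate 3 or N1IC replicate 2. With sex as a covariate the adjusted p was 0.0758 for Tlr3 and 0.108 for Ticam1 by limma. The cytosolic sensors Ifih1 and Ddx58 and their adaptor Mavs, chosen with their values known, did not pass, with log2 differences of 0.16, -0.26 and -0.19. Neither did the bright genes Irf3, Eif2ak2 and Azi2, at -0.06, -0.13 and -0.08.

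None of 9 interferon ligand genes measured on a probe set of their own differed, either after adjustment or at an unadjusted p below 0.05 by limma. Their mean log2 level was low, between 4.74 and 4.86 on the WT arrays and between 4.81 and 4.84 on the N1IC arrays. Without detection calls, the lack of a difference does not show that these genes were expressed or that their expression was equal. Ifnb1, the first type I interferon made on sensing of RNA and named after its values were seen, had a log2 difference of 0.19 with an adjusted p of 0.477. Ifna1 and Ifna5, which encode alpha interferons, had log2 differences of 0.15 and 0.08, and Ifnz stood at -0.39. Of 13 measured genes of MHC class I presentation, which type I and II interferon both raise, none passed, and 1, Tap1, had an unadjusted p below 0.05 by limma. B2m and H2-K1 had log2 differences of 0.01 and -0.08, and that of Psme1 was 0.01.

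Genes tied to interferon gamma gave 4 higher and none lower of 14 measured, or 28.6%, beside 11.8% of all genes. That count rests on the arrays and the fit used, since without WT replicate 1 it was 1 higher and 3 lower, and with sex as a covariate none passed by limma. Cxcl10, a chemokine that both types of interferon induce, was 5.27-fold higher, at 8.16, 8.54 and 8.88 in WT and 10.90, 10.35 and 11.52 in N1IC. Its adjusted p was 0.00895 by limma, and the call held in each fit that left out 1 array but was lost with sex as a covariate, at 0.0967. Irf1, a transcription factor of the interferon response, rose 1.92-fold, and Psmb10, a subunit of the immunoproteasome, rose 1.35-fold. The remaining called gene, Socs1, is also counted in the receptor and signalling list above. Psmb10 lost its call in each fit that left out 1 array, and Irf1 in all but the fit without N1IC replicate 2, with adjusted p up to 0.132 by limma. Ifng itself, named after its values were seen, read 4.05, 7.12 and 7.66 in WT and 9.65, 8.13 and 9.09 in N1IC and did not pass, with an adjusted p of 0.149 by limma. Icam1, Ifngr1 and Igtp did not pass, at -0.40, -0.53 and 0.59. Cxcl9, a chemokine related to Cxcl10 and chosen with its values known, had a log2 difference of -2.11 with no overlap and an adjusted p of 0.1 by limma. Cxcl9, Ciita and Ifngr1 were the 3 lower without WT replicate 1, with adjusted p of 0.00479, 0.0013 and 0.018 by limma.

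**Figure D5:**
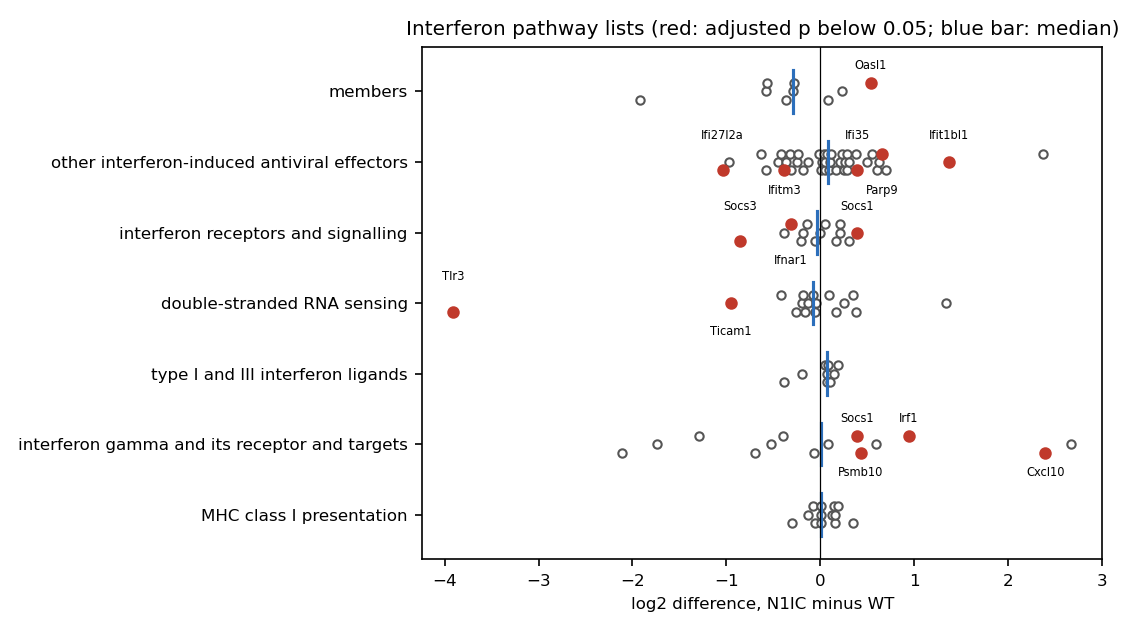
Log2 difference between N1IC and WT for 9 interferon genes with their own probe set and each measured gene of 6 further interferon pathway lists. Genes with an adjusted p below 0.05 are red and named, and the blue bar is the median of the list. Isg15, measured only on its shared probe set, is not drawn. Medians lie between -0.29 and 0.08, while Tlr3 stands at -3.91 and Cxcl10 at 2.40.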

How the data were processed

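Per the labels' protocols, 5 ng of RNA was amplified (Nugen Ovation) and its cDNA biotin-labelled. The authors' deposited values are probe set intensities made with RMA, per the submitters' processing notes, with version and settings not given in the sources used here. They are on a linear scale, as their range shows, and log2 was taken. Of the 45101 probe sets, 64 were controls, 34945 had 1 symbol and 932 had several. Symbols were updated by gene ID for the 34741 probe sets found in RefSeq. Each of the 18193 genes was represented by its brightest probe set. The groups were compared in R 4.3.3 with limma 3.58.1 (two-sided, no covariate, threshold 0.05), with 4 residual and 2.05 prior degrees of freedom. Python 3.11.15 and matplotlib 3.10.9 made the figures. Data were simulated from the SD of each gene on these arrays, with 100 genes changed by 1 and 100 by 2 on the log2 scale among 18193. The test recovered 66% of those changed by 1 and 88% of those changed by 2, with 10 false calls. In the data a larger share of genes, 11.8%, was called, so these rates are not the power of this comparison. Precision is limited by the number of arrays. Arrays were taken as separate mice, by their replicate numbers. The titles of WT replicates 1 and 2 add the letter b to the number, unlike the other titles, and its meaning is not known. Arrays of a group correlated at 0.985 to 0.992 and across groups at 0.968 to 0.975, over probe sets, which are not independent. The interferon genes and all lists were chosen with earlier results of these data known. Genes named from the lists are those called, up to 8 by smallest p, and 3 bright ones not called. The alternatives varied the normalization, filter, probe set rule, variance prior, weights, threshold, covariates and the arrays used.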

Additional observations from a re-analysis of the deposited data

How the results depend on the processing

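Over 201 recalculations of the 10 interferon genes, 179 kept direction and side of the threshold, 3 lost the call, 11 gained it and 8 changed sign. The sign changes were Mx2 at 0.042 and Oas1a at 0.027 with each array centred on the median of its tested genes, Ifit1 at -0.08 without WT replicate 2, -0.05 without WT replicate 3 and -0.10 without N1IC replicate 1, and Rsad2 at -0.12 with females alone or a sex term and -0.048 without WT replicate 3. With 1 array left out, Ifit1 ranged from -0.10 to 0.39 and Rsad2 from -0.048 to 0.40. None of these was called, and the centring adds 0.32 to every difference, which fixes those 2 sign changes. Counts are given below as higher and lower, first for all genes (632 and 1512), then for the 9 interferon genes tested (1 and 0), the 42 effectors (3 and 2), the 14 receptor and signalling genes (1 and 2) and the 17 sensing genes (0 and 2). Where a list is not named, its counts stayed within 1.5 times.

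With the replicate number as a block they were 357 and 936, 0 and 0, 1 and 0, 0 and 1, and 0 and 2, with Oasl1 at an adjusted p of 0.0544 by limma. The labels do not say that numbers pair mice, and deviations of arrays with 1 number correlated at -0.09, -0.07 and 0.07, so not every array was closest to its own number. With sex as a covariate they were 116 and 333, 0 and 0, 1 and 0, 0 and 0, and 0 and 0. With female mice only they were 142 and 504, 0 and 0, 0 and 0, 0 and 1, and 0 and 1. Both fits rest on WT replicate 2 as the WT female. Centring on the median of tested genes gave 5359 higher over all genes, 1 lower interferon gene, 18 and 1 effectors, 4 and 1 signalling genes and 3 higher sensing genes. Repeated quantile normalization and centring on the array median each left 0 signalling genes higher. The brighter 60% of genes gave 1 lower interferon gene, 0 higher signalling genes and 1 higher sensing gene. The brighter 40% gave 857 lower over all genes, 0 and 1 interferon genes, 0 higher signalling genes and 1 and 0 sensing genes. The mean of all probe sets gave 1 lower interferon gene, 6 higher effectors, 1 lower signalling gene and 1 higher sensing gene. Each probe set on its own gave 2 higher, since it adds the Isg15 probe set. An intensity trend gave 1 lower interferon gene, 5 higher effectors, 0 higher signalling genes and 1 higher sensing gene, and array weights gave 1 lower interferon gene. A threshold of 0.01 gave 209 and 536 over all genes and 0 called in the effector, signalling and sensing lists. A threshold of 0.1 gave 1038 higher over all genes, 3 lower interferon genes, 6 and 5 effectors and 1 higher sensing gene. Leaving out 1 array gave 332 to 509 higher and 835 to 1420 lower over all genes, 1 higher and 0 to 1 lower interferon genes, 0 to 2 and 0 to 1 effectors, 0 and 0 to 2 signalling genes, and 0 to 1 and 0 to 2 sensing genes. Fits with fewer arrays or a further term have fewer residual degrees of freedom, and the cause of the other shifts was not tested.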

Other observations

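Ifi44l, an interferon-induced gene chosen after its values were seen, read near 9 on some arrays and below 5 on others in both groups. It stood at 3.49, 9.13 and 3.31 in WT replicates 1, 2 and 3 and at 9.44, 9.46 and 4.16 in N1IC replicates 1, 2 and 3. The high arrays were all from female mice, and N1IC replicate 3, also female, was low. The log2 difference between the groups was 2.38, with an adjusted p of 0.544 by limma.

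Tnfaip3, an inhibitor of inflammatory signalling in the sensing list and also chosen after its values were seen, had a log2 difference of 1.34 with no overlap between the groups and an adjusted p of 0.0587 by limma.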
